A study of Mus musculus with 32 samples.

Results

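Irs2 and the genes around it in insulin and insulin-like growth factor (IGF) signalling were followed through hippocampal RNA of 8 inbred mouse strains. Members were all probe sets of the Affymetrix U74Av2 array whose only gene symbol in the platform annotation was Irs1, Irs2, Insr, Igf1, Igf1r, Pik3r1, Akt1, Akt2, Igfbp4 or Igfbp5. The rule found 12 probe sets for 9 genes among 12422 probe sets that are not controls. Igfbp5 had none, because the 1 probe set that lists it also lists another gene and was not used. Of the 12, 8 probe sets for 7 genes lay among the 7453 with the highest mean signal, where tests were run. The genes were chosen because Irs2 was already known to be low in DBA/2J on these arrays, so its strain values are a description with no p, and nothing is read from its place in a count of calls.

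The mice were untreated and came from 8 inbred strains: DBA/2J, C57BL/6J, A/J, SJL/J, FVB/NJ, BALB/cByJ, C3H/HeJ and the strain that the sample titles give as hippocampus_129S1SvImJ, drawn in the plots in its usual form with a slash. RNA of 6 mice was pooled for each strain. From the 1 pool labelled RNA (cRNA) was prepared in 2 rounds, with 2 arrays for each, which makes 32 arrays in all. P-values therefore measure the spread between preparations of 1 pool, not the spread between animals, and the number of arrays limits the precision. The labels state neither age nor sex. Values below are log2 of the deposited signal, and a strain mean is given with the SD of its 2 preparations (n = 2).

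The mean signal after trimming was 100.05 to 100.07 on the 32 arrays, and the median signal was 29.4 to 43.7. All 5 neuron markers and all 7 interneuron markers on the array passed the filter on low signal, and none of the cell type lists had a summed signal at 0. Probe sets for 6 sense-strand controls were high on 11 arrays (6.95 to 7.84, including all 4 of BALB/cByJ) and low on the other 21 (4.91 to 5.64).

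Insulin and the IGFs bind the receptor tyrosine kinases encoded by Insr and Igf1r. The receptors phosphorylate the adaptor proteins IRS1 and IRS2, which recruit phosphoinositide 3-kinase through its regulatory subunit, encoded by Pik3r1, and so activate the AKT kinases. IGF-binding proteins hold the ligands outside the cell and set how much of them reaches the receptor. In the hippocampus the pathway is known for its part in neuronal survival, growth and synaptic plasticity.

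The sequence just upstream of the start is shown for Irs2, the member whose level differed most between strains, and for Irs1, its paralogue, since theirs were the only member windows that held both of the short motifs searched. Forkhead factors of the FOXO group and E-box-binding factors are known to act at the Irs2 promoter, and the motifs were an E-box (CACGTG) and TGTTTTG, a forkhead-type element, on both strands. They stand in capitals in the 250 bases before the start, from RefSeq's GRCm38.p6, the C57BL/6J assembly, at chr8:11008930-11009179 (Irs2, minus strand) and chr1:82291440-82291689 (Irs1, minus strand):
Irs2: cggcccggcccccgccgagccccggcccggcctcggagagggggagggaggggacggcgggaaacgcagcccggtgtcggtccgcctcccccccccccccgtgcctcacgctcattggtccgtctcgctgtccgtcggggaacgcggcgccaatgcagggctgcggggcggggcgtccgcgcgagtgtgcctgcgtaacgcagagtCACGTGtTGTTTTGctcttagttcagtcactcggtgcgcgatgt
Irs1: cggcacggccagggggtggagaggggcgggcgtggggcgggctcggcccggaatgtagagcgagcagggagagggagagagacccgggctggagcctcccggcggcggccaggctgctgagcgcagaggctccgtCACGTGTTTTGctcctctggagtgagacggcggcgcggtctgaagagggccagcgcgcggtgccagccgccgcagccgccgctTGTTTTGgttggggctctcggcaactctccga
In Irs2 the E-box starts 44 bases and TGTTTTG 37 bases before the start, and they do not overlap. In Irs1 the E-box starts 115 bases before the start and shares 2 bases with the TGTTTTG that starts at 111, and another TGTTTTG starts at 32. Windows were found for 8 of the 9 member genes (not Insr), 13 in number, and 2 of the 13 held both motifs. Over 32817 mouse windows of the same length, 6.02% held the E-box, 5.56% held TGTTTTG and 0.296% held both. The motifs were chosen for factors known at the Irs2 promoter, and in Irs1 they share bases. No enrichment among the members is therefore read from these shares. A match describes the letters and no factor's binding, and the sequence of the other 7 strains was not analysed here.

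The signal of Irs2, an adaptor of both receptors, was low in DBA/2J, intermediate in C57BL/6J and level in the other 6 strains (probe set 92205_at). No second Irs2 probe set was there to compare, and whether the probes match the sequence of each strain equally was not tested. In DBA/2J the log2 signals on arrays 1 to 4 were 3.61, 3.97, 5.03 and 4.86 (signals of 12.2, 15.7, 32.6 and 29), a mean of 4.37 ± 0.81. In C57BL/6J they were 6.41, 6.51, 4.22 and 6.01 (signals of 85.2, 91.4, 18.6 and 64.5), a mean of 5.79 ± 0.95. DBA/2J arrays all lay below every array of the other 6 strains, and so did the C57BL/6J arrays, while array 3 of C57BL/6J lay below 2 arrays of DBA/2J.

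The other 6 strains ran from 7.23 to 7.40. A/J was at 7.31, 6.95, 6.98 and 7.70 (mean 7.23 ± 0.15), SJL/J at 7.31, 7.41, 6.71 and 7.53 (7.24 ± 0.17) and hippocampus_129S1SvImJ at 7.57, 7.08, 6.78 and 7.57 (7.25 ± 0.11). FVB/NJ was at 7.49, 7.34, 7.18 and 7.16 (7.29 ± 0.17), BALB/cByJ at 7.57, 6.66, 7.59 and 7.36 (7.30 ± 0.26) and C3H/HeJ at 7.52, 7.51, 7.24 and 7.32 (7.40 ± 0.17). Their arrays overlapped throughout, and each neighbour in this order differed from the next by 0.10 or less, within the SD between preparations.

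**Figure D1:**
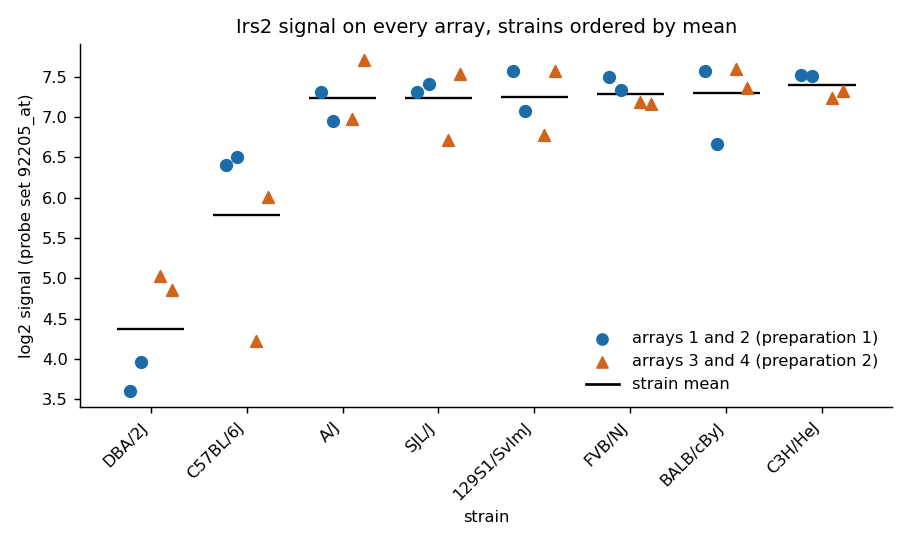
Irs2 signal (log2, vertical axis) on each of the 32 arrays by strain (horizontal axis), with marks for the 2 cRNA preparations and bars for the strain means. The 4 DBA/2J arrays lie between 3.61 and 5.03 and the 4 C57BL/6J arrays between 4.22 and 6.51, below all arrays of the other 6 strains.

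From lowest to highest strain mean, Irs2 spanned 3.03 on the log2 scale, an 8.16-fold difference. The DBA/2J mean corresponds to a signal of 20.6, under the limit of 21.3 set for the mean over all arrays, and no detection calls were used, so the fold is against a level not shown to be above background. Of the 7453 tested probe sets, 11 had a span as wide or wider, Irs2 included, and the median span was 0.68. The choice of Irs2 for its low level in DBA/2J favours a wide span, so nothing is read from this place. DBA/2J minus the mean of the other 7 strains was -2.70 (6.52-fold lower), with -3.40 in the first preparation and -2.01 in the second. C57BL/6J minus the mean of the 6 strains other than DBA/2J was -1.50 (2.82-fold lower), with -0.85 in the first preparation and -2.15 in the second.

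The order of DBA/2J and C57BL/6J was less firm. C57BL/6J was 2.67 above DBA/2J in the first preparation and 0.17 above in the second, and on the arrays numbered 3 the difference turned to -0.81. With preparation nested in strain and negative estimates set to 0, strain took 77.1% of the variance of Irs2 over the 32 arrays, preparation 8.45% and array 14.5%. The medians over all tested probe sets were 6.73%, 20.9% and 58.3%. The choice of Irs2 also favours a large strain share, so that comparison is a description. The size also depends on the low end of the scale: with 64 added to every signal before the log, DBA/2J minus the other 7 was -1.24. Without the 11 arrays with high sense-strand controls, which leaves out BALB/cByJ, DBA/2J minus the mean of the remaining 6 strains was -2.64.

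In pooled tissue, fewer cells of a type and less RNA per cell cannot be told apart. The summed signal of the 5 neuron markers (Snap25, Syt1, Nefl, Camk2a and Nrgn) had a median of 6280 in DBA/2J (arrays 5810 to 6990) and 6560 in C57BL/6J (6190 to 7470), and strain medians of 6940 to 8220 in the other 6. In DBA/2J, 2 of the 5 were called lower than in the other 7 strains (Camk2a and Nrgn) and 1 higher (Nefl), where 1.44% of all tested probe sets were called in either direction. In C57BL/6J 1 was called higher (Nefl), where 2.28% were called. The summed endothelial and pericyte markers were highest in DBA/2J, with a median of 458 against 305 to 413 elsewhere (Rgs5 called higher, as it was in C57BL/6J and BALB/cByJ), and Slc32a1, an interneuron marker, was called lower there. C57BL/6J had the highest oligodendrocyte sum (median 3790 against 2610 to 3300 elsewhere, Mag called higher) and the highest interneuron sum (4070 against 3200 to 3830). Its choroid plexus sum (Ttr, Kl and Folr1) was the lowest, at 114 against 149 to 410 (Ttr called lower). The part of these shifts in the Irs2 values was not tested.

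Genes on either side of Irs2 on its chromosome did not pass the test. The 3 nearest tested genes before it in the RefSeq order, Elavl1, Efnb2 and Arglu1, differed between DBA/2J and the other 7 strains by -0.08, 0.14 and 0.04. The 3 after it, Col4a1, Col4a2 and Ing1, lay at 189, 304 and 547 kb and differed by -0.11, 0.09 and 0.10. Adjusted p over all tested probe sets was 0.9 to 0.98 for these 6 contrasts, and 0.4 to 0.9 for limma's F-test across strains.

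The 5 genes most like Irs2 were picked by rule: those whose 16 preparation values had the highest Pearson r with it, out of 6742 tested probe sets with 1 symbol. Dlgap4, a scaffold protein of the postsynaptic density, had r = 0.93 and strain means of 6.84 in DBA/2J, 7.20 in C57BL/6J and 8.03 to 8.36 elsewhere. Ank3, which encodes the ankyrin of the axon initial segment and was read by a probe set that can detect more than 1 transcript, had r = 0.91, with 6.97, 7.23 and 8.88 to 9.14. For both genes DBA/2J and C57BL/6J were low, and the other 6 strains lay close together.

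Mapt, the gene of the microtubule protein tau, had r = 0.85 and stood at 8.08 in DBA/2J, 8.62 in C57BL/6J and 8.98 to 9.30 elsewhere. Commd5 had r = 0.84 (6.24, 6.28 and 6.59 to 6.96), and the calcium-dependent phosphodiesterase gene Pde1a, on a probe set that can detect more than 1 transcript, had r = 0.84 (6.85, 7.07 and 7.73 to 8.16). The likeness came from those 2 strains: without both, r over the remaining 12 preparations was -0.43 for Dlgap4, 0.08 for Ank3, 0.22 for Mapt, 0.14 for Commd5 and -0.27 for Pde1a. Preparations of a strain share 1 pool, and all share the arrays, so these values are descriptions.

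**Figure D2:**
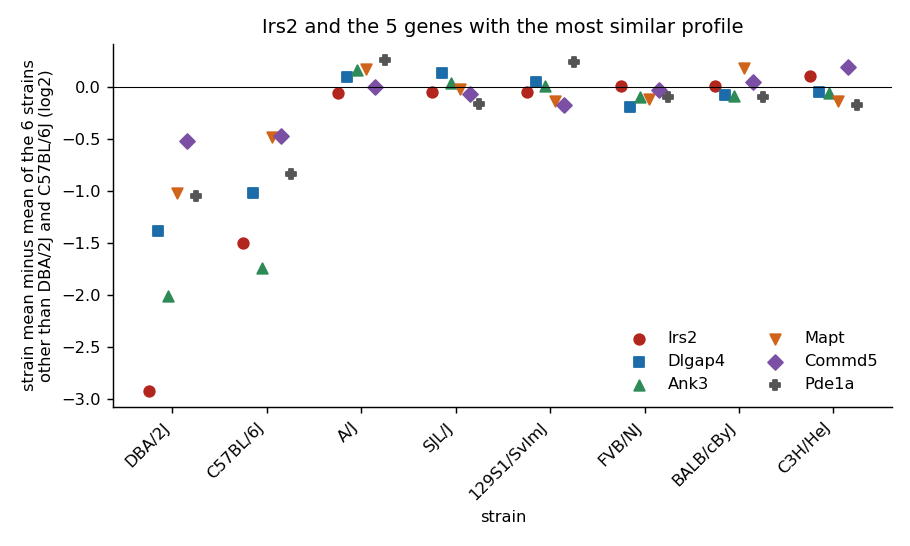
Strain mean minus the mean of the 6 strains other than DBA/2J and C57BL/6J (log2 signal, vertical axis) for Irs2 and the 5 most similar genes, by strain (horizontal axis). DBA/2J and C57BL/6J are the low strains for each gene, and Irs2 has the widest span, 3.03.

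Across the 8 tested member probe sets, limma's F-test called 1, Irs2, the member chosen for its level, against 4.58% of all tested probe sets, which says nothing about the members since the choice fixed it. None of the other 7 probe sets was called, none had an unadjusted p under 0.05, and none was called with the preparation number as a block, a fit that called 18.9% of all tested probe sets. Their median span between strain means was 0.52, against 0.68 over all tested probe sets. Of the 56 contrasts of 1 strain with the other 7, 0 passed, against 1.93% of all such contrasts, and 2 had an unadjusted p under 0.05. With the block, 2 of the 56 passed, against 6.13% of all. Array 2 of FVB/NJ is assigned to the first preparation by the series design, but its title gives the day of other strains' array 3, and without it 0 of the 56 passed with the block.

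**Figure D3:**
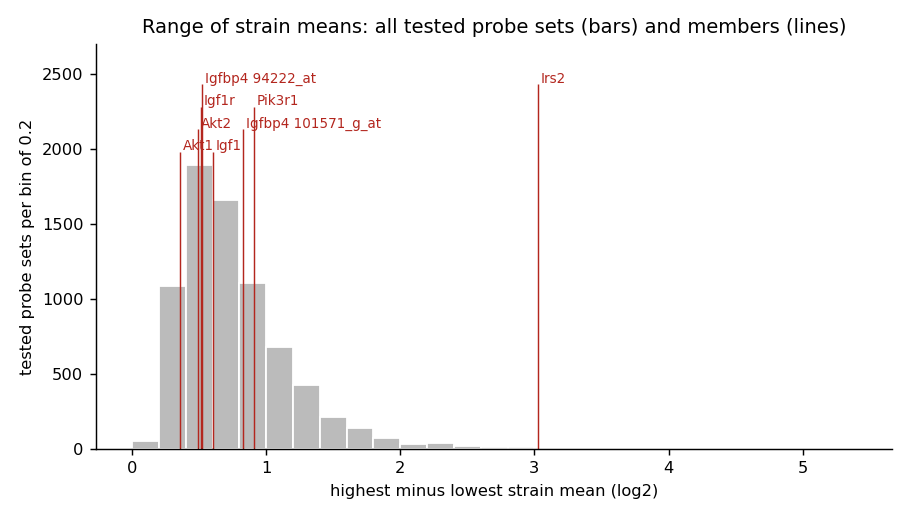
Number of tested probe sets (vertical axis) by the span between highest and lowest strain mean (log2, horizontal axis), with a line for each tested member probe set. Akt1 has the narrowest member span, 0.36, and Irs2 the widest, 3.03, against a median of 0.68 over all tested probe sets.

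Among the ligands, Igf1 encodes insulin-like growth factor 1, and its main probe set (95545_at) had signals of 162.4 to 492.4. Its lowest strain mean was in C57BL/6J, at 7.91, 8.74, 7.34 and 7.95 on the 4 arrays (7.99 ± 0.48), and its highest in BALB/cByJ, at 8.27, 8.73, 8.43 and 8.94 (8.59 ± 0.13). The arrays of the 2 strains overlapped, and the 1.52-fold span did not pass (adjusted p = 0.75 by limma's F-test, 0.2 with the block).

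Igf1 was 0.38 ± 0.19 (SE) higher in BALB/cByJ than in the other 7 strains, with a 95% confidence interval of -0.04 to 0.79. That contrast had an adjusted p of 0.21 in limma, 0.047 with the block, and 0.067 with the block but without FVB/NJ array 2. The gene's second probe set (95546_g_at) was below the filter, with signals of 2.2 to 18.9, and over the 8 strain means its r with the first was 0.50.

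Igfbp4, an IGF-binding protein that inhibits IGF action, had 3 probe sets that did not give 1 strain order. Probe set 101571_g_at spanned 1.77-fold, from A/J, at 6.98, 6.82, 6.26 and 5.52 (6.39 ± 0.71), to C3H/HeJ (7.22 ± 0.24). Its adjusted p was 0.57 by limma's F-test and 0.23 with the block. Probe set 94222_at spanned 1.43-fold, from C57BL/6J (6.07 ± 0.51) to BALB/cByJ (6.59 ± 0.16), with an adjusted p of 0.93 (0.58 with the block).

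The third, 101570_at, was below the filter with signals of 1.2 to 24.1, and it was lowest in C57BL/6J (0.98 ± 0.19) and highest in BALB/cByJ (3.49 ± 1.49). Over the 8 strain means, r was -0.11 between the 2 tested probe sets, 0.77 between 101570_at and 94222_at, and -0.02 between 101570_at and 101571_g_at. In A/J the low mean of 101571_g_at came from arrays 3 and 4, which carry the second preparation.

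Of the receptors, Igf1r had no strain call and Insr was dim. Igf1r, the IGF-1 receptor, ran from A/J (7.07 ± 0.23, arrays 6.80 to 7.24) to C57BL/6J (7.58 ± 0.49, arrays 6.93 to 7.93). This 1.42-fold span had overlapping arrays and an adjusted p of 0.89 by limma's F-test (0.43 with the block). Insr, the insulin receptor, was below the filter, with signals of 3 to 32.6 over all arrays and strain means from SJL/J (2.54 ± 0.79) to BALB/cByJ (3.44 ± 0.73). The dim signal sets no order for Insr.

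The adaptor paralogue of Irs2, Irs1, was dim as well. Its signals ran from 0.7 to 32.1 over all arrays, below the filter, and its strain means from FVB/NJ (1.97 ± 0.03) to BALB/cByJ (3.41 ± 0.39). DBA/2J stood at 2.71 ± 0.29 and C57BL/6J at 2.39 ± 1.21, inside that range.

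Pik3r1, the regulatory subunit of phosphoinositide 3-kinase, was lowest in C57BL/6J, at 4.67, 5.34, 5.56 and 5.43 (5.25 ± 0.35), and highest in hippocampus_129S1SvImJ (6.16 ± 0.38, arrays 5.59 to 6.47). The next lowest strain, DBA/2J, was at 5.73 ± 0.09, with arrays of 5.63 to 5.82 that did not overlap those of C57BL/6J. Single low arrays of other strains did overlap, such as FVB/NJ array 1 at 4.71. C57BL/6J minus the other 7 was -0.65 ± 0.27 (SE; 1.57-fold lower, 95% confidence interval -1.23 to -0.08), with an adjusted p of 0.3 in limma, 0.024 with the block, and 0.16 with the block but without FVB/NJ array 2. Across strains the span was 1.87-fold (adjusted p = 0.74 by limma's F-test, 0.1 with the block).

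The AKT kinases, the effectors of this branch, had the 2 narrowest spans of the tested members. Akt1 ran 1.29-fold from FVB/NJ (7.82 ± 0.11, arrays 7.55 to 8.12) to C3H/HeJ (8.19 ± 0.62, arrays 7.66 to 8.72). Its adjusted p was 0.97 by limma's F-test and 0.44 with the block. Akt2 ran 1.41-fold from FVB/NJ (7.17 ± 0.03, arrays 6.76 to 7.53) to C3H/HeJ (7.66 ± 0.52, arrays 7.20 to 8.08), with an adjusted p of 0.79 (0.33 with the block). In C3H/HeJ, for both genes, the first preparation was high (8.63 and 8.03) and the second was not (7.75 and 7.29).

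**Figure D4:**
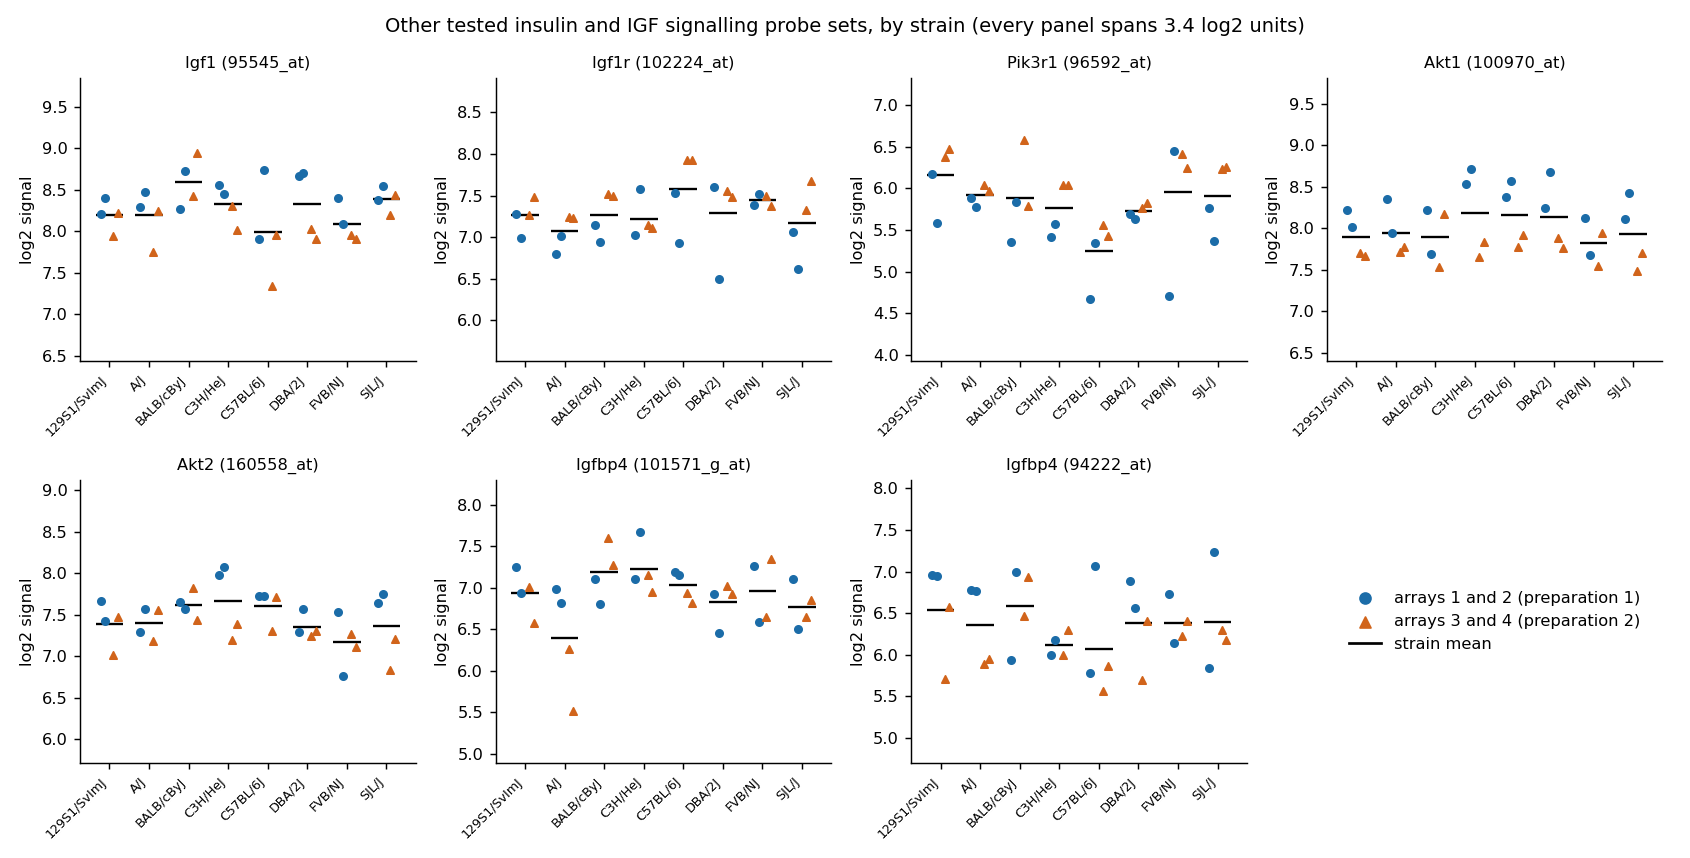
Log2 signal (vertical axis) of the 7 tested member probe sets other than Irs2 on each array by strain (horizontal axis), with bars for strain means. Strain means span 0.36 (Akt1) to 0.91 (Pik3r1), and the C57BL/6J arrays of Pik3r1 lie below those of the next strain, DBA/2J, which is the only pair of neighbouring strains in these panels whose arrays do not overlap.

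For the tested members other than Irs2, preparation took more of the variance than strain when preparation was nested in strain. In a fit with strain and preparation, 6 of the 8 tested members differed between the first and second preparation, against 37.5% of all tested probe sets. Of these, 4 were higher in the first (11.9% of all) and 2 lower (25.6% of all). Akt1 was 0.49 higher in the first (95% confidence interval 0.31 to 0.67, adjusted p = 0.001 in limma) and in 8 of 8 strains, by 0.10 to 0.88. Pik3r1 differed by -0.49 (-0.72 to -0.26, adjusted p = 0.003 in limma), and in 0 of 8 strains was it higher there.

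Igfbp4 (94222_at) was 0.40 higher in the first preparation (adjusted p = 0.025 in limma, 6 of 8 strains), Igf1 0.32 higher (0.011, 7 of 8) and Akt2 0.26 higher (0.044, 6 of 8). Igf1r changed by -0.34 (0.015), with 2 of 8 strains higher in the first. Irs2 differed by 0.06 (95% confidence interval -0.33 to 0.46, adjusted p = 0.82 in limma), with single strains from -1.15 to 1.35. Igfbp4 (101571_g_at) differed by 0.14 (adjusted p = 0.4). The preparation and the day in the sample titles largely ran together, so the 2 cannot be told apart. Without array 2 of FVB/NJ, whose title day is at odds with its preparation, 6 of the 8 still passed. Akt1 was then at 0.52 (adjusted p = 5.3e-04 in limma) and Pik3r1 at -0.60 (0.0062). For Pik3r1, the first FVB/NJ preparation then rested on array 1 alone (4.71), and FVB/NJ differed by -1.63. With all arrays, the 8 strains ran from -0.76 to -0.13. Over the 7 strains other than FVB/NJ, Akt1 was higher in the first preparation in 7 and Pik3r1 in 0. With preparation nested in strain and negative estimates set to 0, strain took 0% of the variance for 6 of the 7 other probe sets. It took 11% for Igfbp4 (101571_g_at). A preparation shift shared by the strains lowers the strain share in this split, so 0% does not show that strain had no part.

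**Figure D5:**
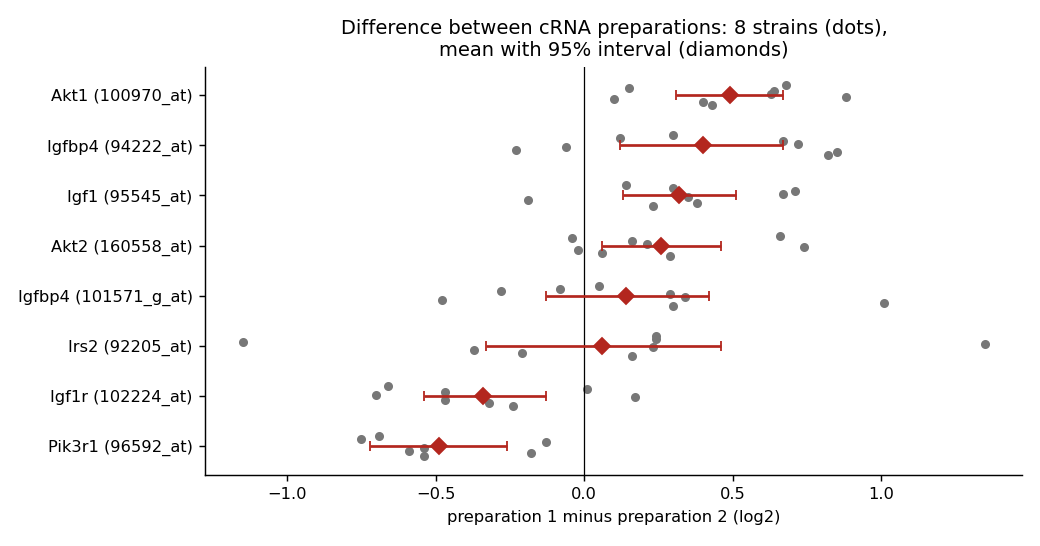
First minus second preparation (log2, horizontal axis) for each tested member probe set, with a point for each strain and the fitted mean with its 95% confidence interval. Akt1 lies above 0 in all 8 strains and Pik3r1 below 0 in all 8, while Irs2 scatters from -1.15 to 1.35.

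Among 98 other genes of the pathway, 73 had a probe set of their own and 55 were tested, and limma's F-test called 2 of them, both in the list of receptors and adaptors, against 4.58% of all tested probe sets. The call counts were 0 of 7 for ligands, binding proteins and proteases, 2 of 14 for receptors and adaptors, 0 of 27 for the phosphoinositide 3-kinase and AKT branch and 0 of 7 for the RAS and MAP kinase branch. With the preparation block 12 of the 55 passed, against 18.9% of all tested probe sets, and 9 without FVB/NJ array 2. The median span was 0.71, against 0.68 over all.

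Socs2, a suppressor of cytokine and growth hormone signalling, was lowest in C57BL/6J and DBA/2J. Its preparations stood at 6.26 and 6.37 in C57BL/6J (6.31 ± 0.08) and 6.40 and 6.44 in DBA/2J (6.42 ± 0.03). The other 6 strains ran from 6.92 ± 0.19 in FVB/NJ to 7.34 ± 0.05 in SJL/J, with no preparation below 6.79. The 2.04-fold span had an adjusted p of 0.0039 by limma's F-test with the block (0.013 when FVB/NJ array 2 was also left out). Without the block, the call by limma's F-test had an adjusted p of 0.023. That call was lost without either preparation of C57BL/6J, DBA/2J or SJL/J (adjusted p 0.056 to 0.11), and without BALB/cByJ array 1, C3H/HeJ array 2, FVB/NJ array 2 or SJL/J array 1 (0.052 to 0.065).

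Grb2, the adaptor that links receptors to RAS, was highest in BALB/cByJ (preparations 8.61 and 8.75, mean 8.68 ± 0.10) and lowest in FVB/NJ (7.80 and 7.68, mean 7.74 ± 0.09). The 1.92-fold span had an adjusted p of 0.0061 by limma's F-test with the block (0.022 when FVB/NJ array 2 was also left out). Without the block, the call by limma's F-test had an adjusted p of 0.033. It was lost without either preparation of BALB/cByJ, C57BL/6J, FVB/NJ or SJL/J (adjusted p 0.058 to 0.19). It was lost too without array 2 of hippocampus_129S1SvImJ, BALB/cByJ or FVB/NJ, array 4 of BALB/cByJ, or array 1 of C3H/HeJ or C57BL/6J (0.05 to 0.11), and without the 11 arrays with high sense-strand controls, which include all of BALB/cByJ (0.66).

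The other 10 calls were made with the block alone, and the genes are named after their values were seen. Igf2, which encodes insulin-like growth factor 2 and is read here by a probe set that can detect more than 1 transcript, ran from C57BL/6J (7.96 ± 0.10) to hippocampus_129S1SvImJ (8.90 ± 0.05), with an adjusted p of 0.14 in limma's F-test and 0.021 with the block. Igfbp2, a binding protein with a preference for IGF-2, ran between the same strains (6.65 ± 0.45 to 7.52 ± 0.05; 0.2, and 0.017 with the block). The choroid plexus markers on the array were Ttr, Kl and Folr1, with geometric mean signals of 182, 28.6 and 27.5 over all arrays. Only Ttr was called in any strain. Their sum was lowest in C57BL/6J as well (median 114, arrays 104 to 133) and stood at 344 (311 to 428) in hippocampus_129S1SvImJ. It was highest in C3H/HeJ (median 410), where Igf2 was at 8.48 and Igfbp2 at 7.28. The next lowest was BALB/cByJ (149), with Igf2 at 8.33 and Igfbp2 at 6.84. The summed meninges markers were highest in hippocampus_129S1SvImJ (median 2570) and lowest in A/J (1710). The part of these markers in the Igf2 and Igfbp2 values was not tested.

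In the phosphoinositide 3-kinase and AKT branch, Sgk1, a kinase activated downstream of this pathway, ran from BALB/cByJ (6.42) to DBA/2J (7.61), with an adjusted p of 0.51 in limma's F-test and 0.014 with the block. Gys1, glycogen synthase, ran from DBA/2J (6.46) to BALB/cByJ (7.51; 0.14, and 0.027 with the block). In the list of receptors and adaptors, Ptpn1, the phosphatase that acts on the insulin receptor, ran from BALB/cByJ (6.98) to C57BL/6J (7.91; 0.19, and 0.021 with the block). The others were Htra1, Dok1, Foxo3, Foxo4 and Cdkn1a, with adjusted p of 0.018 to 0.049 with the block. Of the 10, Dok1, Foxo3 and Foxo4 were no longer called with the block once FVB/NJ array 2 was left out (adjusted p 0.071, 0.069 and 0.15). Among the 55 genes, 0 were called in DBA/2J against the other 7 strains, against 1.44% of all tested probe sets.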

How the data were processed

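Labelled hippocampal RNA of 8 inbred strains was hybridised to 32 Affymetrix U74Av2 arrays. The deposited values are linear signal intensities, which the authors computed with MAS5 according to the submitters' processing notes. The MAS5 version was not given, and detection calls were not used here. After 66 control probe sets were removed from 12488, signals below 1 (2.14% of values) were raised to 1 before log2 was applied. Tests covered the upper 60% by mean log2 signal (above 21.3 as a signal, 7453 probe sets). Members, lists and tests were chosen with earlier results of these data known.

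Strain and number came from the sample titles. Per the series design, arrays 1 and 2 carry the first cRNA preparation and 3 and 4 the second. The title of FVB/NJ array 2 gives the day of other strains' array 3, and the design was followed. The 2 arrays of a preparation were averaged, and the 16 values were fitted with 8 strain means in limma 3.58.1 under R 4.3.3 (lmFit, eBayes with a trend, with residual degrees of freedom of 8). The moderated F-test and contrasts of each strain with the mean of the other 7 were adjusted by Benjamini-Hochberg over all tested probe sets, at a threshold of 0.05. The preparation test came from the same fit with preparation as a term, the block. Deviations of same-numbered values correlated in 28 of 28 pairs of strains (r 0.109 to 0.557, median 0.385). The number was therefore taken to mark a shared preparation round and to pair the samples. The titles of arrays 3 and 4 of BALB/cByJ and of FVB/NJ give days other than those of the same-numbered arrays elsewhere. For these arrays the titles do not show a shared round, and the block was not run without them. In simulated data with 7453 probe sets, only DBA/2J was lowered, noise was independent, and strains shared no preparation shift. The F-test there recovered 22% of 100 changes of 1 on the log2 scale and 77% of 100 of 2, with 3 false calls. The contrast of DBA/2J recovered 64% and 97%, with 11 false calls. Recovery with a shared shift, or with changes in several strains, was not tested.

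Every member probe set is named. From the pathway lists, genes past the F-test are named, as are the 5 genes most like Irs2 and the 3 nearest tested genes on each side of it. Gene symbols came from the platform annotation, which can be old, and gene order and upstream windows from RefSeq tables of GRCm38.p6. Probe sets ending in _g_at or _s_at can read more than 1 transcript. A gene of a list was represented by its probe set of highest mean signal. Alternatives were quantile normalization, median centring, other filters and offsets, the block, single arrays with and without the title day, no variance trend, and leaving out each preparation and each array. Leaving out the arrays with high sense-strand controls, leaving out FVB/NJ array 2 with the block, and counting without Irs2 were added after seeing the data.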

Additional observations from a re-analysis of the deposited data

Results flagged for a closer look

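Over 14 probe sets, the members and the called genes Grb2 and Socs2, and 8 strains, 5 of 112 groups of 4 arrays held an array far from the other 3, by a rule that chance meets in about 1 of 20 groups. Irs1 was at 0.00, the floor, on array 1 of C3H/HeJ, with the other arrays at 2.54 to 2.98. Igf1r was at 6.49 on array 2 of DBA/2J, with the others at 7.48 to 7.60. Pik3r1 was at 4.71 on array 1 of FVB/NJ, with the others at 6.25 to 6.45. Akt2 was at 7.30 on array 3 of C57BL/6J, with the others at 7.71 to 7.73. Igfbp4 (101571_g_at) was at 6.46 on array 2 of DBA/2J, with the others at 6.92 to 7.02. No Irs2 value was among them, but the rule sets the gap to the nearest array against the range of the 4. Irs2 on array 3 of C57BL/6J was at 4.22, with the others at 6.01 to 6.51, and fell short of the rule.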

How the results depend on the processing

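None of the 7 member probe sets other than Irs2 was called by the F-test under any of 60 alternatives (Pik3r1 had no value with the 40% filter). Irs2 in DBA/2J minus the other 7 was -2.72 to -2.68 under 9 of 12 alternatives that leave out no single library or only FVB/NJ array 2, -2.64 against the 6 strains left without the sense-strand arrays, -2.03 with an offset of 16 and -1.24 with one of 64. It was -3.28 to -2.13 without single preparations and -2.80 to -2.61 without single arrays. Probe sets past the F-test numbered 341, 1405 with the preparation block (1002 without FVB/NJ array 2), 2324 for single arrays with the title day, 1388 for single arrays, 162 without the arrays with high sense-strand control signal (an alternative chosen after seeing the data), 260 to 380 without single preparations and 267 to 380 without single arrays. Other pathway genes called numbered 2, against 1 with median centring, with no filter or with no variance trend, 12 with the block (9 without FVB/NJ array 2), 25 and 17 for single arrays with and without the day, 0 without the sense-strand arrays, 0 to 2 without single preparations and 0 to 3 without single arrays (0 without FVB/NJ array 2, 3 without DBA/2J array 2). Strain contrasts called among the 7 other members numbered 0, against 2 with the block (0 without FVB/NJ array 2) and 3 for single arrays with the day, and 0 under the remaining alternatives. With Irs2, whose calls were fixed by its choice, they numbered 1, against 2 with an offset of 16 or 64, 4 with the block (2 without FVB/NJ array 2), 5 and 2 for single arrays with and without the day, 1 to 2 without single preparations (2 without the first of C57BL/6J or of DBA/2J) and 1 without single arrays. Grb2 was no longer called with median centring (adjusted p = 0.14 in limma), no filter (0.051) or no variance trend (0.1), nor Socs2 without the sense-strand arrays (0.11). Beyond the sample and model size of those settings, the cause was not tested. Irs1 and Insr were too dim for a strain order.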
